A study of Mus musculus with 16 samples.

Results

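Retinaldehyde dehydrogenases and the genes that make, carry and read retinoic acid were followed in C2C12 cells, an established mouse myoblast line, with and without the microRNAs of the miR-206 family. The set held 10 of the 35275 genes in the deposited table, taken by symbol: Aldh1a1, Aldh1a2, Aldh1a3, Aldh1a7, Rdh10, Crabp1, Crabp2, Rara, Rarb and Rarg. The set was chosen by the measured rise of Aldh1a1 and Aldh1a7 in the knockout cells, so the values of all 10 genes between knockout and control cells are given as a description, without a test.

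Poly(A) RNA was sequenced from 16 libraries in 4 groups of 4. The controls were wild-type C2C12 populations 1 and 2, and the knockout cells were clones 1 and 2, both lacking miR-206 together with miR-1a-1 and miR-1a-2, a triple knockout (tKO). Each of these 4 lines was sampled in growth medium (GM), as myoblasts, and after 3 days of serum reduction (DM3), as myotubes, in 2 cultures per line and stage. All groups share the parental line, which is described by the submitters as negative for PAX7. A clone is 1 line, so each genotype rests on 2 lines, and because nothing states that the 2 cultures of a line were grown independently, p-values measure only the spread between these libraries. The controls are populations and the tKO lines are clones, so a genotype difference cannot be told apart from one of clonal isolation. Levels are FPKM, that is, fragments scaled to the length of the gene and to the total of the library.

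Libraries held 22642563 to 56585952 fragments. The summed level of 10 myotube markers was 10.6 to 14.5 FPKM in GM and 575 to 1020 in DM3 libraries of the controls, and 14.2 to 76.5 and 253 to 1048 in those of the tKO cells, and the 2 lowest tKO DM3 sums, 253 and 326, were those of culture 2 of each clone. Of 8 myoblast markers, Pax7 had at most 6 fragments in any library, and Myod1, the myogenic determination factor, was listed at 0 in all control GM libraries and averaged 1.90 FPKM in control DM3. The rest were expressed in control GM, where Itga7 averaged 40.9 FPKM, Des 39.5, Myf5 17.0, Met 15, Cdh15 9.79 and Chrna1 7.01. The 8 summed to 125 to 140 FPKM in control GM and 681 to 1006 in control DM3 libraries. In tKO libraries they summed to 126 to 218 in GM and 653 to 1137 in DM3. The 5 macrophage markers summed to 0.712 to 4.08 FPKM over all libraries. Mature microRNAs are not measured by these libraries, so the deletions were not checked here.

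Retinoic acid is made from retinol in a pair of oxidations. Retinol dehydrogenases such as RDH10 make retinaldehyde, and retinaldehyde dehydrogenases, the ALDH1A enzymes, oxidise it irreversibly to retinoic acid. CRABP proteins bind retinoic acid in the cytosol, CRABP2 delivering it to the nucleus, where the receptors RARA, RARB and RARG act as heterodimers with retinoid X receptors. Retinoic acid promotes differentiation of cultured myoblasts, and aldehyde dehydrogenase activity is used as a mark of progenitor cells in muscle. ALDH1A7 is a close rodent paralog of ALDH1A1.

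Aldh1a1 lies on chromosome 19 at 20601961-20643462, plus strand, and Aldh1a7 at 20692953-20727562, minus strand, in the table's mm10 coordinates, so the pair are neighbours on opposite strands. The 150 bases before each gene's start (RefSeq promoter windows, GRCm38.p6) are shown because the pair carry 1 common stretch there. Capitals mark the longest run that both hold, 65 bases without a mismatch, which ends 23 bases before the start of Aldh1a1 and 24 before that of Aldh1a7.
Aldh1a1, chr19:20601811-20601960, plus strand: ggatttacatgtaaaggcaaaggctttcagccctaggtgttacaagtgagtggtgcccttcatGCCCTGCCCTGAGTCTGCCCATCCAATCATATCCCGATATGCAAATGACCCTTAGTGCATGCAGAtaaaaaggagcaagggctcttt
Aldh1a7, chr19:20727563-20727712, minus strand: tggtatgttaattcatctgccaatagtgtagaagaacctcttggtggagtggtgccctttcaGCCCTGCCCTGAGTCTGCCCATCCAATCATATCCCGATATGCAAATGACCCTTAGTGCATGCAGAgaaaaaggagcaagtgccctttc
A global alignment of the 2 stretches had 120 identical positions in 162 columns (74.1%). Both runs hold the octamer ATGCAAAT, which was present on either strand in 570 of 32851 promoter windows of RefSeq genes (1.74%). The windows searched run from 250 bases before to 50 after a start. Of the 2 windows listed for Aldh1a1, 1 held it, and so did the window of Aldh1a2, a member with no fragment in any library.

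The coding sequences of Aldh1a1 and Aldh1a7, 1506 bases each in GENCODE release 21, were identical at 1383 bases (91.7%). Of the stretches of 50 bases in the Aldh1a7 transcript, 151 of 2017 (7.49%) also occurred in an Aldh1a1 transcript, and of stretches of 100 bases 1 of 1967 did. How the authors counted fragments that match both genes is not given in the sources used here, so part of the smaller Aldh1a7 signal could be shared with Aldh1a1.

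The seed of miR-206, which miR-1a shares, was set against the members' 3′ untranslated regions because these microRNAs are what the tKO cells lack. Capitals mark the seed, bases 2 to 8.
miR-206-3p: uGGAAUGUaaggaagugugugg
The 8-base match ACATTCCA was in the longest annotated 3′ untranslated region of 799 of 21027 genes (3.8%) and in none of the 10 members. A 7-base match, ACATTCC or CATTCCA, was in 3557 genes (16.9%) and in 1 member, Rarb, at base 21 of its 3′ untranslated region.
Rarb site, match in capitals: tgttgcagACATTCCccaggacc

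Aldh1a1 was far higher in tKO than in control libraries in both stages. In control GM cells it measured 0.153 and 0.470 FPKM in population 1 and 0.217 and 0.18 in population 2, from 11 to 24 fragments. In tKO GM cells it measured 4.86 and 19.7 in clone 1 and 20.0 and 40.1 in clone 2. In control DM3 cells the values were 2.35, 2.79, 1.85 and 1.90, and in tKO DM3 cells 47.9, 66.7, 64.2 and 84.5. Every tKO library therefore stood above every control library, and the lowest tKO GM library stood above the highest control DM3 library.

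The mean level of Aldh1a1 was in GM 0.255 ± 0.146 FPKM for the controls and 21.2 ± 14.5 for the tKO cells (SD, n = 4), an 82.9-fold ratio of means. In DM3 it was 2.22 ± 0.44 and 65.8 ± 15 (SD, n = 4), a 29.6-fold ratio. On the log2(FPKM + 1) scale, which understates changes of low genes, the differences were 3.85 in GM and 4.36 in DM3. The order of the stages depends on this scale: the DM3 difference minus the GM difference was 0.51, but -0.82 with 0.1 in place of 1 and -1.32 from fragment counts, so neither stage can be said to hold the larger difference. In such bulk samples, more cells with the transcript and more transcript per cell cannot be told apart.

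Aldh1a7 was at a lower level and also stood higher in every tKO library than in every control library of the same stage, although the lowest tKO GM value lay within the control DM3 range. Control GM libraries held 1, 1, 3 and 0 fragments, at most 0.0431 FPKM, where 3 fragments correspond to 0.0415 to 0.0584 FPKM. The tKO GM libraries measured 0.163 and 0.962 FPKM in clone 1 and 1.14 and 2.83 in clone 2, from 10 to 180 fragments. Control DM3 libraries measured 0.0887, 0.205, 0.137 and 0.3, and tKO DM3 libraries 2.14, 6.33, 8.91 and 15.9. The groups did not overlap in either stage, and the DM3 means, 0.183 ± 0.0916 and 8.32 ± 5.78 (SD, n = 4), stood in a ratio of 45.5.

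**Figure D1:**
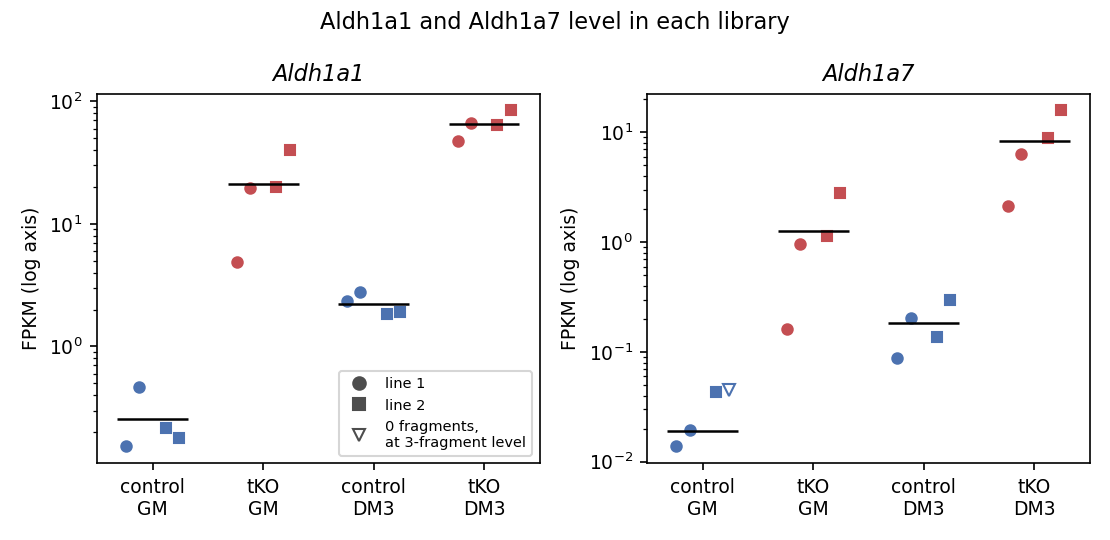
Level of Aldh1a1 (left) and Aldh1a7 (right) in each of the 16 libraries, in FPKM on a log axis, by group, with circles for line 1, squares for line 2 and black lines at group means; the open triangle is a library with 0 fragments, drawn at the level of 3 fragments in that library (0.0446 FPKM). Every tKO library stands above every control library of its stage, and Aldh1a1 in tKO GM (4.86 to 40.1) stands above control DM3 (1.85 to 2.79).

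Other members were compared with this background. Among the 11832 genes with a mean of at least 0.5 FPKM, the tKO libraries stood wholly above the controls for 5.38% in GM and 4.22% in DM3, and wholly below for 8.62% and 4.3%. Of the members, 7 passed that level. Aldh1a1 and Aldh1a7 stood above in both stages and Rarg below in both, whereas the groups of Rdh10, Crabp2, Rara and Rarb overlapped in both stages. Because the choice of the set used this contrast, nothing is read from these counts. Aldh1a7 and Rarb passed the level only through the groups where they are high. Aldh1a1 lay under it in every control GM library (at most 0.470 FPKM).

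Rarg, the most abundant receptor, measured 95, 88.1, 107 and 85.7 FPKM in control GM libraries and 78.1, 53.4, 81.5 and 70.5 in tKO GM libraries. In DM3 it measured 58.5, 65.4, 64.0 and 54.9 in controls and 53.5, 38.3, 51.9 and 44.0 in tKO cells. The tKO libraries were the lower in both stages, narrowly in DM3, where the highest tKO and lowest control values were 53.5 and 54.9. The differences in log2(FPKM + 1) were -0.41 in GM and -0.37 in DM3. Without the 2 tKO DM3 libraries of culture 2, those with the low myotube markers, the DM3 difference was -0.20, and the part of those markers in it was not tested.

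The 3 receptors kept 1 order in every group. Rarg was at 38.3 to 107 FPKM, Rara at 11.5 to 21.5 and Rarb at 0.0133 to 1.79, so no library of one reached the range of the next. Rara averaged in GM 17.5 ± 3.01 FPKM for controls and 16.4 ± 2.68 for tKO cells, and in DM3 12.5 ± 0.672 and 13 ± 1.73 (SD, n = 4). Its tKO and control values differed by -0.09 in GM and 0.04 in DM3 (log2), within the spread of either group.

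Rdh10, the first enzyme of the path, averaged in GM 18.4 ± 1.99 FPKM for controls and 13.7 ± 3.53 for tKO cells (SD, n = 4). The 4 tKO GM values were 10.8, 18.9, 12.6 and 12.7, and the second of these lay within the control range of 15.5 to 19.6. In DM3 the means were 6.81 ± 0.693 and 5.08 ± 1.46, with clone 1 at 3.6 and 4.05 and clone 2 at 6.29 and 6.39. Only clone 1 lay below the lowest control, 6.02.

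Crabp2 averaged in GM 29.3 ± 2.67 FPKM for controls and 23.8 ± 10.2 for tKO cells, and in DM3 36.6 ± 5.41 and 27.8 ± 4.55 (SD, n = 4). The tKO GM values ran from 14.9 to 38.3 and enclosed the control range of 25.9 to 32.3.

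The other members, 3 in number, were at or near the detection limit. Aldh1a2, which makes most retinoic acid in the early embryo, had 0 fragments in every library, and 3 fragments would be at most 0.0585 FPKM. Aldh1a3 had 0 to 15 fragments per library, with 9 to 15 in control GM and 0 to 2 in tKO DM3. Crabp1 had 0 to 3. Aldh1a1 was thus the retinaldehyde dehydrogenase with the highest level in every group except that in control GM the level of Aldh1a3, 0.0803 to 0.175 FPKM, reached into its range of 0.153 to 0.470.

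**Figure D2:**
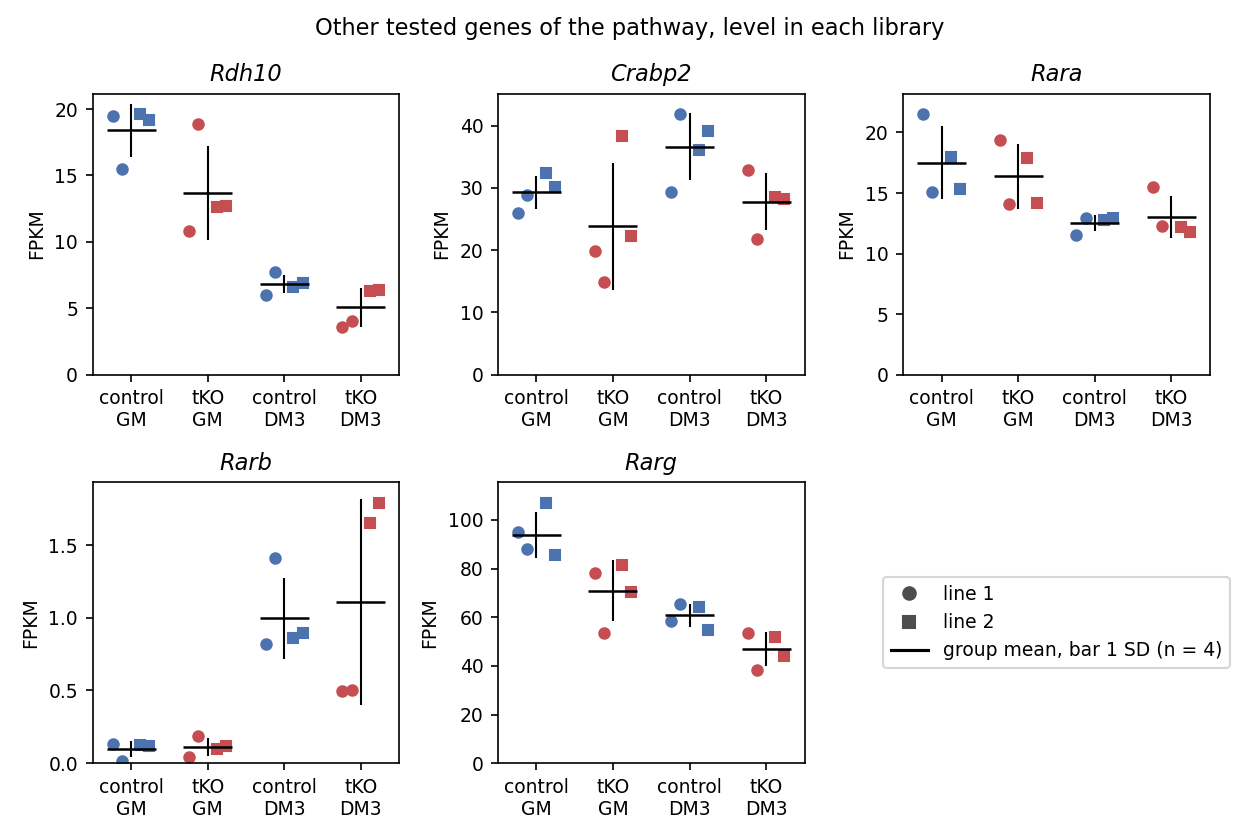
Level of the other 5 tested members in each library, in FPKM, with circles for line 1, squares for line 2, and the group mean with 1 SD (n = 4) in black. The means of Rdh10 and Rarg are lower and that of Rarb is higher in DM3 than in GM, and in tKO DM3 the Rarb values of clone 1 (0.493 and 0.504) and clone 2 (1.65 and 1.79) lie on opposite sides of the controls.

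Aldh1a1 rose and Rdh10 and Rarg fell with differentiation in both genotypes, and Rarb was higher in every DM3 library than in every GM library. This contrast was not used to choose the set, so it was tested with limma on log2(FPKM + 1) over all 11832 genes, and a gene is called at a Benjamini-Hochberg adjusted p under 0.05. In control cells 5 of the 7 tested members were called, and in tKO cells 5 of 7. Among all tested genes control cells had 61.5% called, 23.2% up and 38.3% down, and tKO cells 60.9%, 24.9% up and 36% down, so the members' counts are near the background. Rarb in both genotypes and Aldh1a7 in tKO cells are among those called, and since they reached the mean of 0.5 FPKM only through the groups where they are high, nothing is read from these counts. For these 2 genes the adjusted p below is therefore from the fit with no filter on level, over every gene with a fragment in any library, unless another setting is named. With median-of-ratios scaling the split over all genes moved from 2743 higher and 4529 lower to 3611 and 3631 in control cells, and the median change from -0.15 to 0.01.

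Aldh1a1 rose with differentiation in both genotypes. In control cells the rise was 1.36 ± 0.387 (SE; limma adjusted p = 0.00628), from a mean of 0.255 to 2.22 FPKM, 8.71-fold. The control GM libraries, at most 0.470 FPKM, all lay under the filter of 0.5, which Aldh1a1 passed through the other groups. In tKO cells it was 1.87 ± 0.387 (SE; limma adjusted p = 0.000568), from 21.2 to 65.8 FPKM, 3.11-fold. With population 1 left out the control rise was 1.26 and with population 2 left out 1.45, and over these fewer libraries neither was called (limma adjusted p = 0.13 and 0.0832). These were the only 2 of 24 alternatives that lost the control call, and the fit with no filter kept it.

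Aldh1a7 rose in tKO cells, by 1.92 (limma adjusted p with no filter = 0.00162), a 6.53-fold ratio of means. In control cells, at the 0 to 24 fragments it had there, its change of 0.21 was not called (limma adjusted p with no filter = 0.794), although all 4 DM3 libraries stood above all 4 GM libraries. The size of the control change depends on the scale. In filtered fits it was 1.2 with 0.1 in place of 1 (limma adjusted p = 0.104) and 3.00 from fragment counts (voom adjusted p = 0.176). The tKO change was there 2.75 and 2.93. As a share of the Aldh1a1 level, Aldh1a7 was 3.36% to 7.06% in GM and 4.47% to 18.8% in DM3 libraries of the tKO cells, and 3.78% to 15.8% in DM3 libraries of the controls. The lowest of these shares, 3.36%, rested on 10 Aldh1a7 fragments.

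Rarb, itself a classical target of retinoic acid, rose in both genotypes from a low level. Control GM libraries measured 0.132, 0.0133, 0.127 and 0.121 FPKM and control DM3 libraries 0.820, 1.41, 0.859 and 0.895. The tKO GM libraries measured 0.0445, 0.189, 0.0945 and 0.118, and the tKO DM3 libraries 0.493, 0.504, 1.65 and 1.79. The groups did not overlap between stages. The rises were 0.85 in control (limma adjusted p with no filter = 0.00201) and 0.86 in tKO cells (limma adjusted p with no filter = 0.00182). In the filtered fit without population 1 the control value was 0.74 and was not called (limma adjusted p = 0.0648).

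The Rarb promoter is shown because it holds the known retinoic acid response element of this gene. The search was for 2 hexamers in the same direction (each AGGTCA or GGGTCA or AGTTCA or GGTTCA) with 5 bases between them, on both strands. It matched 32 of the 32851 promoter windows (0.0974%), and among the members with a window only that of Rarb. The match, in capitals, spans bases 53 to 37 before the RefSeq start.
Rarb, chr14:16575477-16575626, minus strand: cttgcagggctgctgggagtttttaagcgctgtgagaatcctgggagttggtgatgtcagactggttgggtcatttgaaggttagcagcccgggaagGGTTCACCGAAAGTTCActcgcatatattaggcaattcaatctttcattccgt
Promoter windows were found for Aldh1a1, Aldh1a2, Aldh1a7, Crabp1, Rara, Rarb and Rarg. A match is a description of the letters, and binding was not measured.

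Rdh10 fell with differentiation by 1.31 ± 0.174 on the log2 scale in control cells (SE; limma adjusted p = 8.06e-06) and by 1.28 ± 0.174 in tKO cells (SE; limma adjusted p = 9.77e-06). All DM3 libraries of either genotype, at 3.6 to 7.70 FPKM, lay below all GM libraries, at 10.8 to 19.6. Rarg fell by 0.62 in control (limma adjusted p = 0.00095) and by 0.58 in tKO cells (limma adjusted p = 0.00164), and by 0.42 in each with median-of-ratios scaling (limma adjusted p = 0.0344 and 0.033). Without population 2, on the FPKM as deposited, the Rarg fall in controls was 0.56 and was not called (limma adjusted p = 0.057).

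Rara fell by 0.44 in control cells (limma adjusted p = 0.00901), but with median-of-ratios scaling its change was -0.25 (limma adjusted p = 0.148), and it was not called without population 1 or population 2 (limma adjusted p = 0.178 and 0.0707). In tKO cells its change was -0.31 (limma adjusted p = 0.0504), and it was called in 8 of 25 alternatives (limma adjusted p over them 0.016 to 0.338). Crabp2 was not called in control (0.30, limma adjusted p = 0.216) or tKO cells (0.28, limma adjusted p = 0.25). The Crabp2 change in control cells was called in 2 of 24 alternatives (limma adjusted p over them 0.015 to 0.546). These were line and culture number as a replicate block, and only the compared libraries. Its tKO change was called in 2 of 25 (limma adjusted p over them 0.00916 to 0.89). These left out clone 2, or the culture 1 GM library of clone 2.

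**Figure D3:**
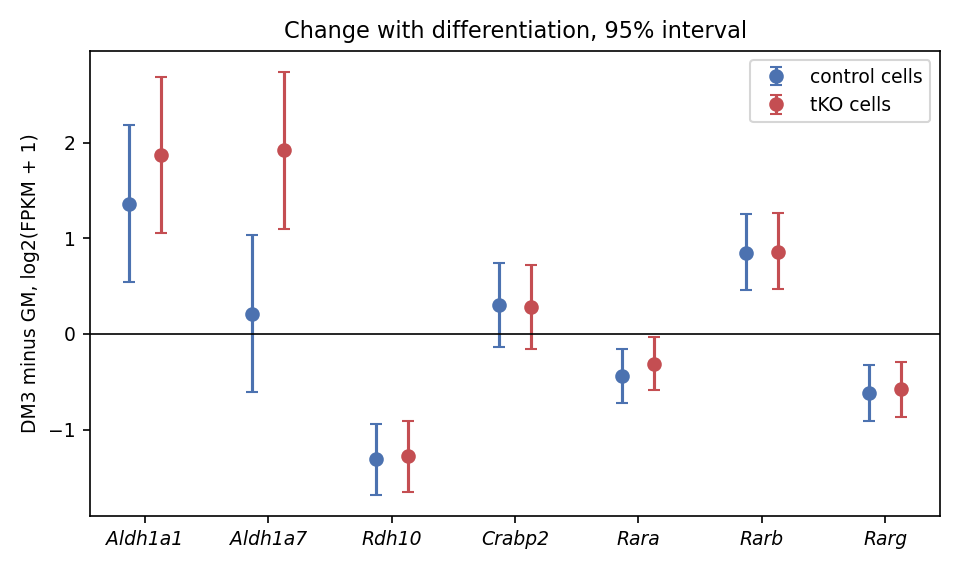
Change from GM to DM3 of the 7 tested members in control (blue) and tKO cells (red), in log2(FPKM + 1), with 95% intervals from limma. Aldh1a1 and Rarb lie above 0 and Rdh10 and Rarg below 0 in both genotypes. Aldh1a7 is at 1.92 in tKO and 0.21 in control cells on this scale, but at 2.75 and 1.2 with 0.1 in place of 1. Aldh1a7 and Rarb passed the filter on level only through the groups where they are high, and Aldh1a1 lay under it in control GM.

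Whether differentiation acted differently in the 2 genotypes was tested by the interaction for the 5 members that were not chosen for their rise. None was called (limma adjusted p 0.844 to 0.996), 0 of 5 had an unadjusted p under 0.05, and voom on fragment counts called 0. Over all genes 0.254% were called and 10.8% had an unadjusted p under 0.05. The interval of the difference was -0.49 to 0.55 for Rdh10, -0.64 to 0.60 for Crabp2, -0.27 to 0.52 for Rara, -0.55 to 0.57 for Rarb and -0.37 to 0.45 for Rarg (95%, log2), so differences of that size cannot be told from 0. For Aldh1a7 the interaction value, with no test, was 1.71 on log2(FPKM + 1) and -0.07 from fragment counts.

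The tKO clones were compared with each other, a contrast independent of the one that chose the set. Aldh1a1 and Aldh1a7 were higher in clone 2 than in clone 1 in each of the 4 matched pairs of stage and culture. For Aldh1a1 the ratios were 4.11 and 2.04 in GM and 1.34 and 1.27 in DM3, and for Aldh1a7 they were 6.99, 2.94, 4.16 and 2.51. In a limma fit of clone and stage over the 8 tKO libraries, clone 2 exceeded clone 1 by 0.89 for Aldh1a1 (95% interval -0.02 to 1.81, adjusted p = 0.304) and by 1.18 for Aldh1a7 (0.42 to 1.94, adjusted p = 0.135). Over the 16 alternatives the Aldh1a7 adjusted p ran from 0.021 to 0.337, with 1 of them calling it. None of the 7 members was called (1.05% of all genes), 2 had an unadjusted p under 0.05 (17% of all genes), and voom called 0. The 2 were Aldh1a7 and Rarb. Both passed the filter on level only through the groups where they are high, so nothing is read from their p-values here. With no filter limma called 0 of 9 members between the clones.

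Cultures differed too. Both genes were higher in culture 2 than in culture 1 of the same clone and stage in all 4 pairs, with ratios of 1.32 to 4.05 for Aldh1a1 and 1.79 to 5.89 for Aldh1a7. The lowest Aldh1a1 and Aldh1a7 values of the tKO cells in each stage were thus those of clone 1, culture 1, and the highest those of clone 2, culture 2. In control DM3 cells culture 2 was also the higher in both populations, by 1.19 and 1.02 for Aldh1a1 and 2.31 and 2.19 for Aldh1a7. Population 2 over population 1 was there 1.54 and 1.46 for Aldh1a7 but 0.789 and 0.68 for Aldh1a1. In control GM cells, at few fragments, each gene went both ways. Between the control populations 0 of 7 members were called by limma (adjusted p = 1 for each), 0 had an unadjusted p under 0.05, and voom called 0. Over all genes 0% were called and 0.879% had an unadjusted p under 0.05.

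**Figure D4:**
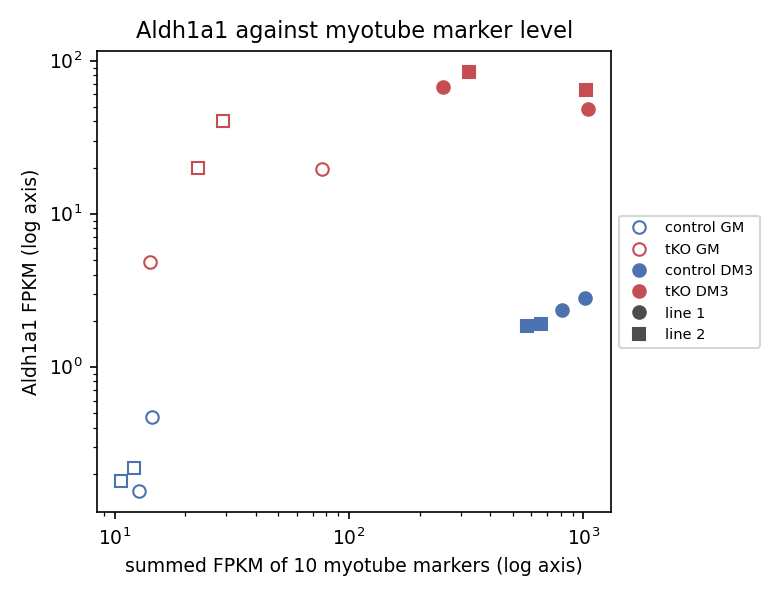
Aldh1a1 level against the summed level of 10 myotube markers in each library, both in FPKM on log axes; open symbols are GM and filled symbols DM3, blue control and red tKO, circles line 1 and squares line 2. Control DM3 libraries, with marker sums of 575 to 1020, hold 1.85 to 2.79 FPKM of Aldh1a1, and tKO GM libraries, with sums of 14.2 to 76.5, hold 4.86 to 40.1.

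Of the 8 tested myotube markers limma called 0 between the genotypes in GM and 0 in DM3. The unadjusted p was under 0.05 for 1 and 3, and voom called 0 and 1. In DM3, Tnnt3 was lower in every tKO library (69.2 to 140 FPKM) than in any control library (187 to 259). Myh3 went the other way, with means of 45.1 and 12.7 FPKM, although its groups overlapped. Neither was called (limma adjusted p = 0.061 for Tnnt3 and 0.0511 for Myh3), so the 0 calls do not show equal differentiation. Of the 7 tested myoblast markers limma called 1 in GM and 0 in DM3. The 1 was the cadherin Cdh15, higher in tKO than in control GM cells (29.7 against 9.79 FPKM, limma adjusted p = 0.000589). The unadjusted p was under 0.05 for 3 in each stage, and voom called 1 and 0. Among all genes 2.06% were called in GM and 3.38% in DM3, with 17.5% and 16.8% at an unadjusted p under 0.05. Control DM3 libraries had myotube marker sums of at least 575 FPKM and at most 2.79 FPKM of Aldh1a1. The tKO DM3 libraries with the low sums of 253 and 326 measured 66.7 and 84.5 FPKM of Aldh1a1, and those with 1048 and 1027 measured 47.9 and 64.2. Without the culture 2 tKO DM3 libraries the Aldh1a1 rise with differentiation in tKO cells was 1.65 (limma adjusted p = 0.0112) and that of Aldh1a7 was 1.42.

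Fibro-adipogenic progenitors are a muscle cell type known for aldehyde dehydrogenase activity, so their markers are given beside Aldh1a1. The 7 markers summed in GM to 62.9 to 75.4 FPKM for controls and 47.3 to 73.4 for tKO libraries, and in DM3 to 94.4 to 271 and 85.1 to 191, with none at 0 in all libraries. Ly6a alone averaged 46.8 and 38.1 FPKM in control and tKO GM cells and 127 and 100 in DM3. Of the 5 tested, limma called 1 lower in tKO GM cells, Pdgfra, against 2.06% of all genes. In tKO DM3 cells it called 2 lower, Dcn (adjusted p = 0.0145) and Mfap5 (adjusted p = 0.0177), against 3.38%. None was called higher. At an unadjusted p under 0.05 there were 2 in GM and 4 in DM3 (17.5% and 16.8% of all genes). In DM3 the tKO libraries stood wholly below the controls for 3 and wholly above for 1 (4.3% and 4.22% of all genes). That 1 was Cd34, at 19.4 to 27.9 against 12.3 to 19.1 FPKM (limma adjusted p = 0.199). The 6 adipocyte markers summed to 4.11 to 15.5 FPKM over all libraries, with Adipoq at no more than 4 fragments in any. The 5 endothelial markers summed in GM to 0.00862 to 0.0768 FPKM for controls and 0.0479 to 0.448 for tKO libraries, and in DM3 to 0.0158 to 0.0635 and 0.0812 to 0.213, without overlap in DM3, and none of them had more than 27 fragments in any library. The part of these markers in the Aldh1a1 values was not tested.

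The wider retinoid machinery was compared between genotypes over a list of 40 genes for uptake and storage, oxidation, reduction, degradation, delivery, receptors and coregulators. Of the 23 tested, limma called 0 higher and 1 lower in GM and 0 in DM3, against 2.06% and 3.38% of all genes. At an unadjusted p under 0.05 there were 5 in GM and 3 in DM3 (17.5% and 16.8% of all genes), and voom called 1 and 0. The list's median change was -0.16 in GM and -0.09 in DM3, beside -0.01 and 0.01 over all genes. The most abundant of the list, Adh5, a class III alcohol dehydrogenase, differed by 0.07 and -0.11, and the receptor Rxrb by -0.07 and -0.10.

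The gene called in GM was Rxra, the retinoid X receptor that pairs with the retinoic acid receptors. It averaged 13.1 ± 0.889 FPKM in control and 8.39 ± 2.04 in tKO GM cells (SD, n = 4), a fall of 0.61 on the log2 scale (limma adjusted p = 0.0289). The call was lost in 12 of 23 alternatives, among them 6 of the 8 that left out 1 library (limma adjusted p over all alternatives 0.00146 to 0.686). In DM3 the means were 19.2 ± 0.928 and 14.3 ± 1.71, a difference of -0.40 (limma adjusted p = 0.123).

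With differentiation 6 of the 23 genes rose and 5 fell in controls, and 9 rose and 4 fell when tKO cells differentiated, beside 23.2% up and 38.3% down over all genes in controls and 24.9% and 36% in tKO cells. With median-of-ratios scaling these were 8 and 5, and 11 and 4. Fabp5, which carries retinoic acid to another nuclear receptor, fell by 1.80 in control and by 2.04 in tKO cells (limma adjusted p = 1.47e-07 and 3.87e-08). Rdh13 fell by 1.18 and by 1.17, and Dhrs4, a retinal reductase, by 1.09 and by 1.06. The retinol dehydrogenases Rdh5 and Rdh14 rose by 1.40 and 1.03 in control and by 1.21 and 1.00 in tKO cells.

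Stra6, the cell-surface receptor for retinol uptake, rose by 1.01 in control (limma adjusted p = 0.0274) and by 0.95 in tKO cells (limma adjusted p = 0.0372). Its control GM libraries, at 0.0998 to 0.279 FPKM, all lay under the filter of 0.5 FPKM. It passed that filter only through the other groups, so nothing is read from these p-values. Adh1, a retinol-oxidising alcohol dehydrogenase, rose by 1.12 in tKO cells (limma adjusted p = 0.00497) and changed by 0.37 in control cells (limma adjusted p = 0.306). Between genotypes Stra6 averaged 0.218 ± 0.0824 and 1.81 ± 1.73 FPKM in control and tKO GM cells and 1.47 ± 0.362 and 4.25 ± 2.6 in DM3 (SD, n = 4), and limma called neither difference (adjusted p = 0.168 and 0.206).

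Genes known to be induced by retinoic acid in some cell types were read from a list of 18. Of the 9 tested, limma called 1 lower in tKO GM cells and 0 in DM3, against 2.06% and 3.38% of all genes, with 3 and 1 at an unadjusted p under 0.05 (17.5% and 16.8% of all genes), and voom called 1 and 0. The median change was 0.08 in GM and 0.01 in DM3. The gene called was Pdgfra, a receptor that is also on the fibro-adipogenic list, at 3.23 ± 0.792 and 0.778 ± 0.499 FPKM (SD, n = 4), a fall of 1.27 (limma adjusted p = 0.00477). Without control population 1 or 2 its limma adjusted p was 0.235 or 0.137. The most abundant, the transglutaminase Tgm2, differed by 0.31 in GM and -0.78 in DM3 (limma adjusted p = 0.739 and 0.34), and the transcription factors Gata4 and Foxc1 by 0.08 and -0.54 in GM and by 0.01 and 0.10 in DM3, none called.

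Other aldehyde dehydrogenases were compared to see whether the family as a whole differed. Of 16 listed genes 15 were in the table and 13 were tested, and limma called 0 in GM and 0 in DM3, with 3 at an unadjusted p under 0.05 in each stage, and voom called 0 and 0. Over all genes limma called 2.06% and 3.38%, and 17.5% and 16.8% had an unadjusted p under 0.05. The median change was -0.15 in GM and 0.02 in DM3. Aldh2, the mitochondrial enzyme of acetaldehyde oxidation and the most abundant, averaged 147 ± 12.8 and 127 ± 44.3 FPKM in control and tKO GM cells and 223 ± 43.8 and 166 ± 35.9 in DM3 (SD, n = 4). Aldh18a1, of proline synthesis, differed by -0.08 and -0.01, and the folate enzyme Aldh1l2 by -0.08 and 0.56 (log2).

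Within 1 Mb of Aldh1a1 the table holds 6 further protein-coding genes, of which 3 were tested and 0 called by limma in either stage, with 1 at an unadjusted p under 0.05 in GM and 0 in DM3, and voom called 0. Anxa1, a calcium-dependent phospholipid-binding protein, averaged 378 ± 46.7 FPKM in control and 608 ± 193 in tKO GM cells (SD, n = 4), a difference of 0.64 (limma adjusted p = 0.125), which was called without clone 2 (adjusted p = 0.0359) or without its culture 1 library (adjusted p = 0.0438). In DM3 it differed by 0.08. Zfand5 differed by -0.12 and -0.16 and 1110059E24Rik by 0.03 and 0.08.

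The genes whose level followed Aldh1a1 most closely over the 16 libraries were ranked by Pearson's r on log2(FPKM + 1), as a description, since the libraries share genotype and stage. They were Mcfd2 (r = 0.914), Garnl3 (0.903), Plag1 (0.891), Ptgis (0.880) and Tmsb4x (0.873), beside 0.902 for Aldh1a7. Within groups, that is, after the mean of each group was taken off, r was 0.486, 0.273, 0.026, 0.143 and 0.463 in the same order and 0.726 for Aldh1a7. Tmsb4x, which encodes thymosin beta 4, averaged in GM 286 ± 31.2 FPKM for controls and 455 ± 157 for tKO cells, and in DM3 267 ± 9.82 and 937 ± 308 (SD, n = 4). Those closest to Aldh1a7 were Brinp3 (0.933), Rspo3 (0.916), Plag1 (0.894), Wfdc1 (0.889) and Ptplb (0.887), with 0.709, 0.864, 0.370, 0.919 and 0.415 within groups. Plag1, a zinc-finger transcription factor on both lists, averaged, in the order of groups given for Tmsb4x, 0.656 ± 0.0964, 1.58 ± 0.146, 1.32 ± 0.32 and 4 ± 0.741 FPKM (SD, n = 4).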

How the data were processed

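The deposited table gives FPKM per gene and library, computed by the authors. STAR, DESeq and the build mm10 are named in the submitters' processing notes, without versions or roles, and the counting program, its strand setting and the annotation release are not given in the sources used here. The table's gene length, used by the authors for the FPKM, gave back whole fragments for every value (within 0.01 of a whole number), and these were used for depths and for voom, an alternative. A value at 0 was set against 3 fragments, which covers counting error only. All 10 members overlapped their genes in GENCODE release 21 (GRCm38).

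Genes with a mean of at least 0.5 FPKM over the 16 libraries (11832) were tested with limma 3.58.1 in R 4.3.3 on log2(FPKM + 1), with 4 group means and trended, robust moderation; Benjamini-Hochberg adjustment ran over all of them, with a threshold of 0.05. The differentiation p-values of Aldh1a7 and Rarb that are marked as with no filter are from the same fit without it. Those of other settings kept the filter. Lines of 1 genotype were compared over its 8 libraries with stage as a covariate. The script was tested on simulated data.

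The members and lists were chosen with earlier results of these data known. Named were all members, called genes of each list that the text counts (up to 6 by size of change), the 3 most abundant of each list, tested neighbours, and the 5 genes most alike to Aldh1a1 and to Aldh1a7. One gene that this rule names is not reported here. Counts of the retinoid list with differentiation, and the fit without the culture 2 tKO DM3 libraries, were added after seeing the data. Culture numbers are not stated to mark a shared batch. The same line was sampled in GM and DM3, where deviations of libraries with the same line and number correlated by 0.0771 to 0.323 over the 4 tKO and 0.0923 to 0.291 over the 4 control pairs.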

Additional observations from a re-analysis of the deposited data

Results flagged for a closer look

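Rarb in DM3 differed in opposite directions between the 2 tKO clones: clone 1 averaged 0.497 FPKM less than the controls (-0.497) and clone 2 0.725 more. Both libraries of clone 1 lay below all 4 controls and both of clone 2 above them. This opposite movement in DM3 was not tested. Over both stages the clones differed by 0.42 (limma adjusted p = 0.293 in the filtered fit).

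In 5 of 28 sets of 4 libraries, 1 library lay far from the other 3, where chance gives about 1 in 20. They were the lowest Rdh10 value in control GM (15.5 FPKM), the lowest Rarb value in control GM (0.0133, from 1 fragment), the highest Rarb value in control DM3 (1.41), the lowest Rara value in control DM3 (11.5) and the highest Rara value in tKO DM3 (15.5). The first 3 of these are culture 2 of control population 1, and the last 2 are culture 1 of line 1 in each genotype.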

How the results depend on the processing

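With 1 control population left out, members called for differentiation in control cells fell from 5 to 2 (without population 1, and likewise 2 without population 2), and the retinoid list's called genes from 11 to 7 or 6. With culture number as a replicate block 1 member, Aldh1a7, was called between the clones (limma adjusted p = 0.021), and the fall of Rara in tKO cells was called (limma adjusted p = 0.0237). In GM the retinoid list had 0 calls with no filter, with line averages, or without control population 1 or 2, and 2 without clone 2; in DM3 it had 1 with no filter or without either clone. The list of genes induced by retinoic acid had 0 calls in GM at a mean FPKM of at least 5, with line averages, or without either control population, and 2 without clone 2; in DM3 it had 1 with median-of-ratios scaling and 2 without clone 2. Other aldehyde dehydrogenases had 1 call in GM with only the compared libraries or without clone 1, 2 without clone 2, and 2 in DM3 without either clone. The neighbours had 1 in GM without clone 2. Leaving out 1 library gave 0 to 3 calls for the retinoid list in GM, 1 to 2 and 0 to 1 for the induced list in GM and DM3, 0 to 1 for other aldehyde dehydrogenases in DM3 and 0 to 1 for the neighbours in GM. Fewer lines leave fewer residual degrees of freedom; otherwise the cause was not tested. No called direction reversed in any alternative run. Same culture numbers in control and tKO libraries correlated by 0.0955 to 0.452 in GM and -0.224 to 0.558 in DM3. Depth limits Aldh1a2, Crabp1 and Aldh1a7 in control GM, at 0 to 3 fragments.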
